A study of Mus musculus with 4 samples.

Results

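The genes described are 10 that make, process, store, release or receive transforming growth factor beta (TGF-beta): the ligands Tgfb1, Tgfb2 and Tgfb3, the convertase Furin, the latent binding protein Ltbp3, the integrin subunits Itgav and Itgb8, the activator Thbs1, and the receptors Tgfbr1 and Tgfbr2. They were a listed set, matched to array probes by RefSeq accession, and all 10 were found among the 20637 genes that could be named on the arrays. They had 15 probes, with 2 probes for 5 genes and 1 probe for the other 5. Each gene is given by the probe that was brightest on average (probe 1), with the second probe beside it.

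The cells were colonic lamina propria dendritic cells, taken by flow cytometry from the connective tissue beneath the epithelium of C57BL/6J mice. The 4 groups were CD300a-deficient (KO) mice raised germ-free (GF), wild-type (WT) mice raised GF, KO mice raised specific pathogen-free (SPF) and WT mice raised SPF. CD300a is an inhibitory receptor for phosphatidylserine, a lipid exposed on dying cells. Each group had 1 one-colour Agilent array with cells from 5 mice per condition, and the labels give GF mice as male and SPF mice as female. The sources used here do not give the Cd300a allele, the age of the mice or whether they were littermates. With 1 array per group no difference below has a replicate check, so sizes are given without p-values, and each array enters more than 1 comparison.

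TGF-beta is secreted as an inactive complex: furin cuts the propeptide from the cytokine, the propeptide stays wrapped around it, and latent TGF-beta binding proteins anchor the complex in the matrix. Integrins that contain the alpha v subunit, among them alpha v beta 8 on intestinal dendritic cells of mice, and the matrix protein thrombospondin-1 can free the active cytokine. The freed ligand binds the type II receptor, which activates the type I receptor and through it the SMAD transcription factors, and in the gut this signal favours the formation of regulatory T cells.

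Levels are log2 of the processed signal minus the array's 75th percentile over probes, so 0 is the brightness of the probe at that percentile. They compare arrays for 1 probe and not one probe with another. In a mixed sample, fewer cells of a type and less RNA per cell cannot be told apart. Both GF arrays shared slide 2 and scan 2, and both SPF arrays slide 1 and scan 1, so what goes with housing and what goes with slide, scan or labelled sex cannot be told apart. Each genotype pair lay within 1 slide. The array probe of Cd300a was not lower on the arrays labelled KO, and its level was 8.05 on the GF and 7.91 on the SPF array labelled KO, against 7.60 and 7.88 on the GF and SPF arrays labelled WT. The place of that probe relative to the deleted part is unknown here, and the arrays are therefore called KO-labelled.

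The KO-labelled GF array also went against its labelled sex. Xist, the RNA that coats the silenced X chromosome in female cells, had a level of 3.63 there, while the WT GF array did not show it well above background, against 5.45 and 4.87 on the KO-labelled and WT SPF arrays. The Y-linked gene Ddx3y was above background on both GF arrays, with levels of 0.60 on the KO-labelled and 2.07 on the WT array. A second Y-linked gene, Eif2s3y, was also above background on the KO-labelled SPF array, labelled female, with a level of -2.56 there, against -0.59 and 0.32 on the KO-labelled and WT GF arrays, while the WT SPF array missed the background mark. The KO-labelled GF array is the only one of its group, so comparisons that use it have no value without it, and the comparison of WT GF with WT SPF does not use it.

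Markers of dendritic cells were present on every array: 9 of 10 were above background on each GF array and all 10 on each SPF array, with Xcr1 missing the background mark on both GF arrays. Their summed log2 level was 7.38 on the KO-labelled GF, 8.09 on the WT GF, 8.68 on the KO-labelled SPF and 8.57 on the WT SPF array. H2-Ab1, an MHC class II gene, made up most of that sum, with levels of 7.24, 7.92, 8.47 and 8.41 on the same arrays. Markers of other cells were present too. All 9 macrophage and monocyte markers on the arrays were above background on all 4, with summed log2 levels between 7.74 and 8.82. All 10 fibroblast and smooth muscle markers were as well, between 3.87 and 4.57. All 8 epithelial markers were at least 2-fold higher under GF than under SPF housing in both genotypes, and their summed log2 level was 7.70 on the KO-labelled and 7.24 on the WT GF array, against 2.42 and 1.80 on the KO-labelled and WT SPF arrays.

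Promoter windows of 250 bases before to 50 bases after an annotated start were taken from RefSeq (GRCm38.p6), which listed 8 of the 10 genes. Tgfb1 and Tgfb2 are shown because they are ligands of opposite promoter make-up, and Furin and Tgfbr1 because they, with Tgfb1, were at least 2-fold lower on the KO-labelled GF than on the KO-labelled SPF array. Capitals mark every match, on either strand, to the Sp1 motif GGGCGG, the core promoter motif TATAAA, the E-box motif CACGTG or the SMAD-associated motif CAGACA. The AP-1 motif TGANTCA, the cAMP response element TGACGTCA, the NF-kB motif and the serum response (CArG) box were searched as well, on both strands, and have no match in these 4 windows.
Tgfb1 start region, GRCm38.p6 chr7:25686752-25687051, + strand: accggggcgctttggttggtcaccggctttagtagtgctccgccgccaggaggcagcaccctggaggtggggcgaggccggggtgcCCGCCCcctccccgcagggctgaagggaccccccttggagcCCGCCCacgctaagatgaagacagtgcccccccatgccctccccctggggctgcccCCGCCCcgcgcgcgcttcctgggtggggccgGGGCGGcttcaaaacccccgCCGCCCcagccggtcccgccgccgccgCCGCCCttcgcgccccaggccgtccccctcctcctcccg
Tgfb2 start region, GRCm38.p6 chr1:186705940-186706239, - strand: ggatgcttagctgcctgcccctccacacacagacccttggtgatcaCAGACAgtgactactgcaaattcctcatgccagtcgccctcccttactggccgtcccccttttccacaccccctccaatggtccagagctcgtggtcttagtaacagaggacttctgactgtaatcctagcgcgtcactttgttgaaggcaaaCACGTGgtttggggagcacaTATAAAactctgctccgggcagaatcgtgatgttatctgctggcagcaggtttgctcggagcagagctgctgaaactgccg
Furin start region, first of its listed windows, GRCm38.p6 chr7:80402763-80403062, - strand: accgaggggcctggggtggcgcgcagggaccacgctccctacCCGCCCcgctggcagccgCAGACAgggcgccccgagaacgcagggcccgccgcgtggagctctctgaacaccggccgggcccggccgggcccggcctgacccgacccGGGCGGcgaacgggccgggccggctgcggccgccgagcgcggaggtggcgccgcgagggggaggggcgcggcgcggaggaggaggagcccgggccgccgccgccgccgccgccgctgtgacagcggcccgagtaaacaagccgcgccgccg
Tgfbr1 start region, first of its listed windows, GRCm38.p6 chr4:47352972-47353271, + strand: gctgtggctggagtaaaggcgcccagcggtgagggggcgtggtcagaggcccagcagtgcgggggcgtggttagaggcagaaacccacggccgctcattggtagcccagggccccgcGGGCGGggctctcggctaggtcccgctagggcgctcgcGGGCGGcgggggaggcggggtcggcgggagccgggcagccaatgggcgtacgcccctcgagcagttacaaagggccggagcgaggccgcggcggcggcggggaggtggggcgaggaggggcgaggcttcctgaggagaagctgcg
The Tgfb1 window held 6 Sp1 motifs, with 77% G and C and no TATA box by these letters. The Tgfb2 window had 54.3% G and C, a TATA box whose first base lies at position -31 from the start, an E-box at -51 and CAGACA at -204. The Furin window held 2 Sp1 motifs and 1 match to CAGACA with 82.3% G and C, and the Tgfbr1 window 2 Sp1 motifs with 74.7%. Among all 32851 windows in the table, 35.7% held GGGCGG, 13.6% TATAAA, 7.15% CACGTG, 21% CAGACA, 7.81% TGANTCA, 1.79% TGACGTCA, 1.63% the NF-kB motif and 1.63% the CArG box, and the median G and C content was 52.7%. A match describes letters and is no evidence of binding.

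Across the 4 arrays, Thbs1 and Tgfb3 varied most among the genes above background on every array, and both were lowest on the GF arrays. Itgb8 was not well above background on any array. Thbs1, Tgfb1, Furin and, by probe 1, Tgfbr1 had the same order of arrays: lowest on the KO-labelled GF array, then WT GF, WT SPF and highest on KO-labelled SPF.

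**Figure D1:**
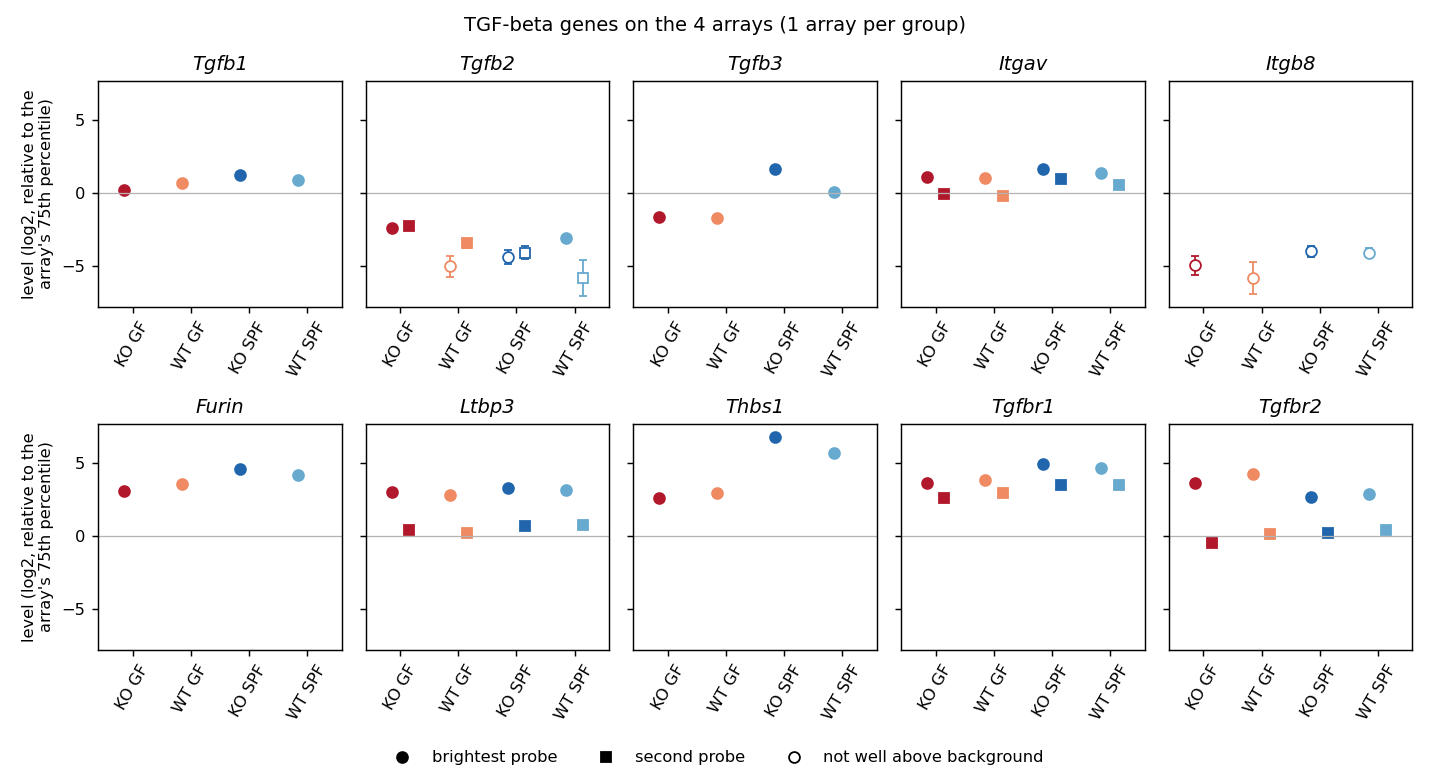
Level (log2 of processed signal minus the array's 75th percentile) of each of the 10 genes on the KO-labelled GF, WT GF, KO-labelled SPF and WT SPF arrays, 1 panel per gene, with points for the probes (open where not well above background) and bars for the error given by the scanner software. Thbs1 had levels of 2.60 and 2.96 on the KO-labelled and WT GF arrays, against 6.79 and 5.69 on the KO-labelled and WT SPF arrays.

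Of the ligands, Tgfb1, the form most immune cells make, had a level of 0.17 on the KO-labelled GF array and 0.68 on the WT GF array, and of 1.21 on the KO-labelled SPF array and 0.89 on the WT SPF array. The KO-labelled GF array was lowest and the KO-labelled SPF array highest. The level was lower by 1.04 (2.06-fold) under GF than under SPF housing in KO-labelled cells, and the difference, GF minus SPF, was -0.21 in WT cells. In the KO-labelled pair 14.5% of the 15572 measured genes were as low or lower. Over the alternative settings the KO-labelled value was -1.04 to -0.70, so it fell short of 2-fold in some. Between genotypes, KO-labelled minus WT, the Tgfb1 difference was -0.50 under GF and 0.33 under SPF housing, each with a software error of 0.21. That error is the scanner software's own figure, averaged over the spots of a probe and not reduced for their number. It is not the measured spread of these spots, and it does not cover the spread between mice or preparations.

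The probes of Tgfb1 and Tgfb3 were printed 10 times on each array, which shows the spread within an array directly. For Tgfb1 the SD over spots was 0.03 (n = 10) on the KO-labelled GF, 0.04 (n = 9, with 1 spot left out by the scanner's outlier mark) on the WT GF, 0.12 (n = 10) on the KO-labelled SPF and 0.12 (n = 10) on the WT SPF array. Its spots lay between 0.13 and 0.22 on the KO-labelled GF array and between 0.61 and 0.74 on the WT GF array, with no overlap. They lay between 0.99 and 1.41 on the KO-labelled SPF array and between 0.66 and 1.06 on the WT SPF array, so these ranges overlapped. Repeated spots show the spread within 1 array and not between mice, and how many other probes had spots without overlap was not counted. For the KO-labelled minus WT difference of Tgfb1 under GF housing, 31.2% of 15697 measured genes were as low or lower. Among bright genes (mean level above 0) the share was 40.3%. Over the 399 probes printed 10 times, the median SD was 0.12 to 0.14 on the 4 arrays.

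Tgfb3, a ligand best known for its roles in development and in T helper cell differentiation, was higher under SPF housing. Its level was -1.68 on the KO-labelled GF array and -1.73 on the WT GF array, against 1.59 on the KO-labelled SPF array and 0.08 on the WT SPF array. Both GF arrays stood together below the SPF arrays, and the KO-labelled SPF array was apart from the rest. It was 9.64-fold lower under GF than under SPF housing in KO-labelled cells (log2 difference -3.27, software error 0.22) and 3.48-fold lower in WT cells (-1.80, 0.22). Only 0.835% of the 15572 genes measured in the KO-labelled pair and 3.44% of the 15656 in the WT pair were as low or lower.

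Between genotypes, Tgfb3 was 2.85-fold higher in KO-labelled than in WT cells under SPF housing (log2 difference 1.51, software error 0.20), a difference reached by 2.74% of 14877 measured genes. Under GF housing the difference was 0.04. Its spots lay between 1.46 and 1.70 on the KO-labelled SPF array, against -0.01 to 0.42 on the WT SPF array. They lay between -1.92 and -1.24 on the KO-labelled GF array, against -1.96 to -1.49 on the WT GF array.

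**Figure D2:**
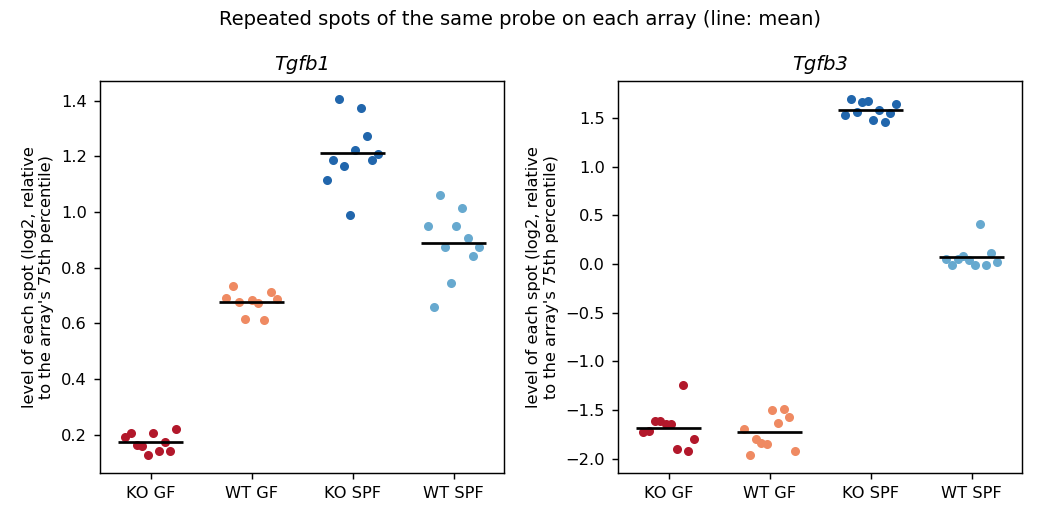
Level (log2, relative to the array's 75th percentile) of each spot of the Tgfb1 and Tgfb3 probes on the KO-labelled GF, WT GF, KO-labelled SPF and WT SPF arrays, where each point is 1 spot and the line is their mean. Spots of Tgfb3 on the KO-labelled SPF array, 1.46 to 1.70, lie above all others of that probe, and spots on both GF arrays overlap.

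Tgfb2 was dim, and its probes did not give the same picture. Probe 1 had levels of -2.42 on the KO-labelled GF and -3.06 on the WT SPF array and missed the background mark on the WT GF and KO-labelled SPF arrays. Probe 2 had levels of -2.30 on the KO-labelled GF and -3.46 on the WT GF array and was not well above background on either SPF array. Where a probe was above background on 1 array of a pair only, a bound is given, the bright level against the higher of the dim level and the lowest level of any probe above background on the dim array.

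In KO-labelled cells Tgfb2 was at least 2.71-fold higher under GF than under SPF housing by probe 1 and at least 2.95-fold higher by probe 2. In WT cells probe 1 was at least 1.86-fold lower under GF than under SPF housing and probe 2 at least 1.61-fold higher, so its direction is not settled there. Between genotypes under GF housing it was at least 2.90-fold higher in KO-labelled cells by probe 1, and the log2 difference was 1.16 by probe 2. Under SPF housing probe 1 was at least 1.73-fold lower in KO-labelled cells. With normexp background correction, which shrinks dim signals, the log2 differences of probe 1 were under 2-fold in every pair: 0.27 between housings in KO-labelled cells, -0.40 in WT cells, and 0.46 under GF and -0.21 under SPF housing between genotypes.

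Of the genes of processing and storage, Furin, the convertase that cuts the TGF-beta precursor, had a level of 3.08 on the KO-labelled GF and 3.53 on the WT GF array, against 4.54 on the KO-labelled SPF and 4.13 on the WT SPF array. Both GF arrays were below both SPF arrays. It was 2.76-fold lower under GF than under SPF housing in KO-labelled cells (log2 difference -1.46), and the GF minus SPF difference was -0.60 in WT cells. The genotype difference, KO-labelled minus WT, was -0.45 under GF and 0.41 under SPF housing. Under GF housing it was -0.04 with cyclic loess scaling.

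Ltbp3, which binds latent TGF-beta and helps its secretion, was at 3.0, 2.79, 3.24 and 3.17 by probe 1 on the KO-labelled GF, WT GF, KO-labelled SPF and WT SPF arrays, and at 0.39, 0.18, 0.66 and 0.75 by probe 2. By probe 1 its levels spanned less than those of any other of the genes above background on every array. GF minus SPF was -0.25 in KO-labelled and -0.38 in WT cells, and KO-labelled minus WT was 0.21 under GF and 0.08 under SPF housing.

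Of the activators, Thbs1, which encodes thrombospondin-1, differed most. Its processed signal was 1252 on the KO-labelled GF and 1481 on the WT GF array, against 17377 on the KO-labelled SPF and 8519 on the WT SPF array, with no saturated spot. On the log2 scale its levels were 2.60 and 2.96 on the KO-labelled and WT GF arrays, against 6.79 and 5.69 on the KO-labelled and WT SPF arrays. It was 18.2-fold lower under GF than under SPF housing in KO-labelled cells (log2 difference -4.18, software error 0.20), where 47 of 15572 genes were as low or lower. It was 6.61-fold lower in WT cells (-2.72, 0.20), where 164 of 15656 were.

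Under SPF housing Thbs1 was 2.14-fold higher in KO-labelled than in WT cells (log2 difference 1.1, software error 0.20). As many as 4.77% of all measured genes, and 2.17% of the 7102 bright ones (mean level above 0), were as high or higher. Under GF housing its genotype difference was -0.36, and 0.06 with cyclic loess scaling. Platelets also carry thrombospondin-1. The 8 platelet and megakaryocyte markers had a summed log2 level of 6.36 on the KO-labelled GF and 6.98 on the WT GF array, against 4.93 on the KO-labelled SPF and 4.90 on the WT SPF array. Pf4 made up most of that sum, and Gp9 and Gp1ba were not well above background on any array.

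Macrophages and fibroblasts are other sources of thrombospondin-1. The summed log2 level of the macrophage and monocyte markers was 7.74 on the KO-labelled GF and 8.67 on the WT GF array, against 8.60 on the KO-labelled SPF and 8.82 on the WT SPF array. For fibroblast and smooth muscle markers it was 4.40 and 4.33 on the KO-labelled and WT GF arrays, against 3.87 and 4.57 on the KO-labelled and WT SPF arrays. The part of platelets, of these cells and of the epithelial markers that differ with housing in the Thbs1 values was not tested.

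The integrin subunit alpha v, Itgav, pairs with beta 8 and with several other beta subunits. Probe 1 had levels of 1.06 on the KO-labelled GF, 1.01 on the WT GF, 1.63 on the KO-labelled SPF and 1.38 on the WT SPF array. Probe 2 had levels of -0.07, -0.24, 0.95 and 0.52 on the same arrays. By both probes the GF arrays were below the SPF arrays. GF minus SPF was -0.58 by probe 1 and -1.02 by probe 2 in KO-labelled cells, and -0.37 and -0.77 in WT cells.

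KO-labelled minus WT differences of Itgav were 0.05 by probe 1 and 0.17 by probe 2 under GF housing, and 0.26 and 0.43 under SPF housing. Itgb8, the beta 8 subunit, had measured levels of -4.97 on the KO-labelled GF, -5.82 on the WT GF, -4.00 on the KO-labelled SPF and -4.09 on the WT SPF array. None of these was well above background, so no difference is given for it, and a low transcript level is not distinguished from none by this 1 probe.

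The type I receptor Tgfbr1 was lower on both GF arrays. Probe 1 had levels of 3.62 on the KO-labelled GF and 3.82 on the WT GF array, against 4.89 on the KO-labelled SPF and 4.65 on the WT SPF array. Probe 2 had levels of 2.56 and 2.91 on the KO-labelled and WT GF arrays, against 3.47 and 3.50 on the KO-labelled and WT SPF arrays. GF minus SPF was -1.27 by probe 1 and -0.91 by probe 2 in KO-labelled cells, and -0.83 and -0.59 in WT cells. The genotype difference was -0.20 by probe 1 under GF housing, which turned to 0.14 with quantile and 0.22 with cyclic loess scaling, and it was 0.24 under SPF housing, where probe 2 gave -0.03.

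For the type II receptor Tgfbr2 the direction of the housing difference depended on the probe. Probe 1 had levels of 3.62 on the KO-labelled GF and 4.20 on the WT GF array, against 2.63 on the KO-labelled SPF and 2.89 on the WT SPF array. Probe 2 had levels of -0.49 and 0.13 on the KO-labelled and WT GF arrays, against 0.18 and 0.38 on the KO-labelled and WT SPF arrays. GF minus SPF was therefore 0.996 (1.99-fold, just under the 2-fold mark) by probe 1 and -0.67 by probe 2 in KO-labelled cells. It was 1.31 and -0.25 in WT cells. Both probes gave a lower level in KO-labelled than in WT cells, by differences of -0.57 and -0.63 under GF housing and of -0.26 and -0.20 under SPF housing.

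As a set, 9 of the 10 genes were above background on at least 1 array of each pair, and Itgb8 was not. Comparing GF with SPF housing in KO-labelled cells, 5 of the 9 were at least 2-fold lower (Tgfb1, Tgfb3, Furin, Thbs1 and Tgfbr1), against 15.4% of all 15572 measured genes and 18.4% of the bright ones. Tgfb2 was the 1 gene at least 2-fold higher, against 21.6% of all. The median difference of the 9 was -1.04, against 0.05 over all measured genes, and 7 of 9 were below 0. The count of 5 of 9 is above the background share. It was 3 with cyclic loess scaling and with the deposited table, where Tgfb1 and Tgfbr1 fell short of 2-fold, and it rests on the array that went against its labelled sex. Marker lists moved in the same comparison. Of the dendritic cell markers 7 of 10 were at least 2-fold lower, with a median difference of -1.27. Of the measured B cell and plasma cell markers 5 of 7 were, with a median of -4.11, and of the neutrophil, eosinophil and mast cell markers 4 of 4, with a median of -2.81. All 8 epithelial markers were at least 2-fold higher, with a median of 4.97. The part of these cells in the result was not tested.

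In WT cells, comparing GF with SPF housing, 3 of 9 were at least 2-fold lower (Tgfb2, Tgfb3 and Thbs1), against 9.44% of 15656 measured genes, and 1 was at least 2-fold higher (Tgfbr2), against 17.5%. The lower call of Tgfb2 is by its measured value, since its bound is under 2-fold, and this call and the higher call of Tgfbr2 are those whose second probe ran the other way, which leaves Tgfb3 and Thbs1, each with 1 probe on the array. The median of the 9 was -0.60, against 0.13 over all measured genes, and 8 of 9 were below 0. In the same comparison 4 of 6 measured B cell and plasma cell markers were at least 2-fold lower, with a median of -2.23, and 3 of 3 neutrophil, eosinophil and mast cell markers, with a median of -2.25, while all 8 epithelial markers were higher, with a median of 4.62. The summed log2 level of the B cell and plasma cell markers was 0.99 on the KO-labelled GF and 1.44 on the WT GF array, against 6.64 on the KO-labelled SPF and 4.48 on the WT SPF array, so it was lowest on the GF arrays and highest on the KO-labelled SPF array, as Tgfb3 and Thbs1 were. The part of these cells was not tested.

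**Figure D3:**
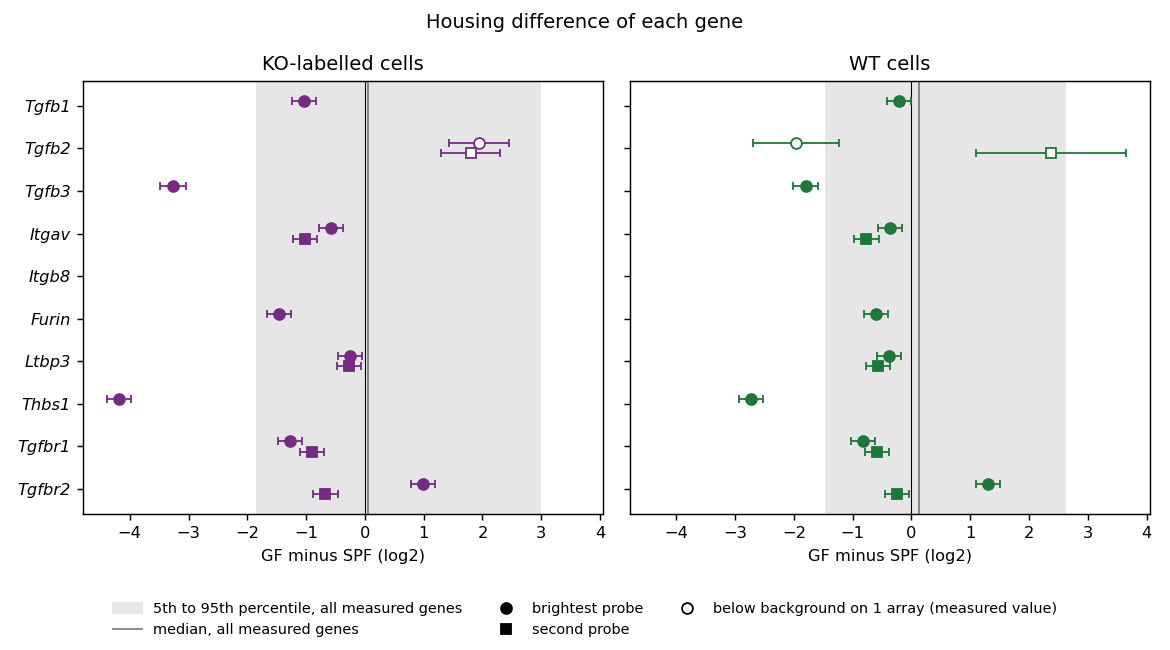
Log2 difference, GF minus SPF, of each measured probe of the genes in KO-labelled (left) and WT (right) cells, with bars for the software error, open points where 1 array was below background, and a grey band and line for the 5th to 95th percentile and median of all measured genes. Thbs1 and Tgfb3 lie farthest below 0 in KO-labelled cells, at -4.18 and -3.27, and both probes of Tgfbr2 lie on opposite sides of 0.

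Between genotypes under SPF housing, 2 of 9 were at least 2-fold higher in KO-labelled cells (Tgfb3 and Thbs1), against 5.61% of 14877 measured genes, and 1 was at least 2-fold lower (Tgfb2, by its measured value and not by its bound), against 6.62%. The median was 0.26, against -0.07 over all measured genes. B cell and plasma cell markers were higher in the KO-labelled array of this pair, 5 of 7 by at least 2-fold, with summed log2 levels of 6.64 in KO-labelled and 4.48 in WT cells. Of the dendritic cell markers 3 of 10 were at least 2-fold higher and 0 lower, with a median of 0.50. Of 7 measured epithelial markers 2 were higher and 0 lower, and of 5 neutrophil, eosinophil and mast cell markers 2 were higher and 3 lower. The part of these cells in the result was not tested. Under GF housing Tgfb2 was the only one of the 9 genes at least 2-fold higher, against 8.78% of 15697 measured genes, and 0 of 9 were at least 2-fold lower, against 7.78%. The median was -0.20, the same as over all measured genes.

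**Figure D4:**
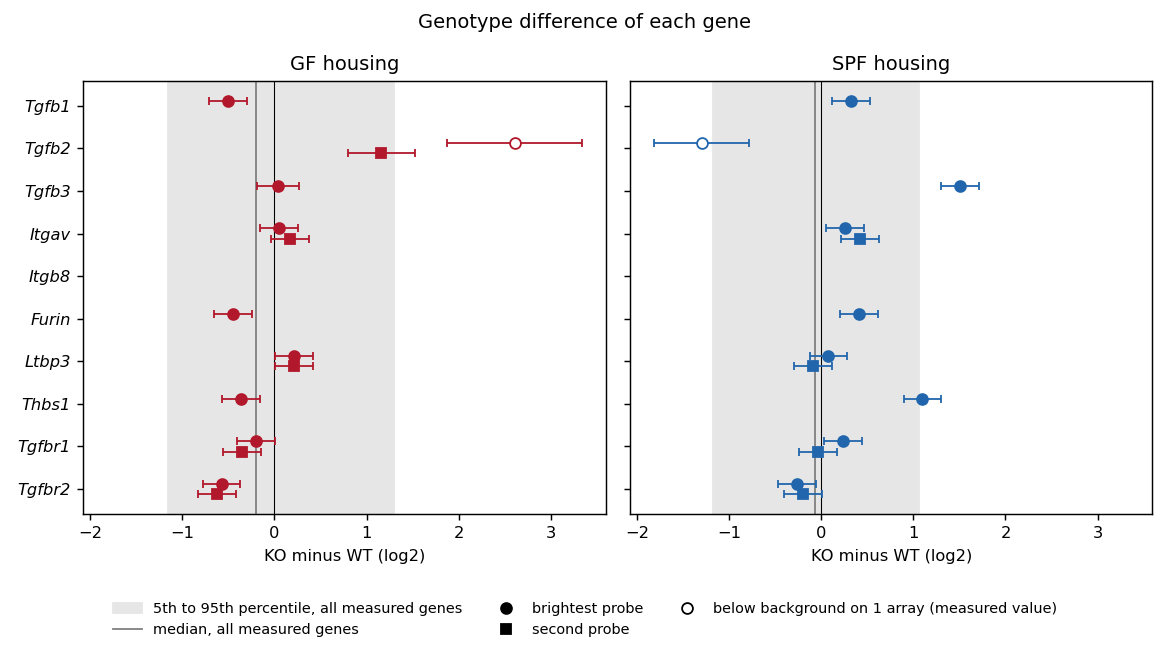
Log2 difference, KO-labelled minus WT, of each measured probe of the genes under GF (left) and SPF (right) housing, with bars for the software error, open points where 1 array was below background, and a grey band and line for the 5th to 95th percentile and median of all measured genes. Tgfb3 and Thbs1 lie above the band under SPF housing, at 1.51 and 1.1, and within it under GF housing, at 0.04 and -0.36.

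The genotype difference itself was larger under SPF than under GF housing for Tgfb3 and Thbs1: taken as SPF minus GF, it was 1.47 for Tgfb3 and 1.46 for Thbs1. Of the 8 genes above background on all 4 arrays these 2 passed 2-fold upward, against 11.7% of 12884 genes, and 0 passed it downward, against 7.23%. The median over the 8 was 0.63, against 0.18 over all and 0.30 over bright genes. It depended on the scaling: it was 0.205 with quantile and 0.211 with cyclic loess scaling, against 0.09 and 0.06 over all. With 1 array in each of the 4 cells of this layout, the genotype difference taken as SPF minus GF has no error estimate beyond the software error.

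The profile of Tgfb1 over the 4 arrays was shared by many genes. After each gene's own mean was removed, the nearest were Slc35f6, Hspa5 and Tomm20, whose levels were each within 0.04 of its profile on every array. In all, 55 of 12884 genes lay within 0.1. For Itgb8 no such list is given because it was not well above background.

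The rest of the pathway was followed in 8 lists of 68 genes in all, of which 67 were on the arrays. The lists were drawn from textbook roles, but with earlier results of these data known. Their genes moved in both directions. Comparing GF with SPF housing, 2-fold or larger differences were upward for 18 and downward for 20 of 62 measured genes in KO-labelled cells, and 10 higher and 10 lower of 64 in WT cells. Comparing KO-labelled with WT cells, 4 of 61 were higher and 11 lower under GF housing, and 6 of 62 higher and 3 lower under SPF housing. Against the shares of all measured genes given above, those of the lists were larger both upward (29%) and downward (32.3%) between housings in KO-labelled cells, downward (15.6%) between housings in WT cells, downward (18%) between genotypes under GF housing and upward (9.68%) between genotypes under SPF housing. For the genotype difference taken as SPF minus GF, 15 of 55 (27.3%) were at least 2-fold upward and 6 (10.9%) downward. In the genotype pair under GF housing, 5 of 8 endothelial markers were at least 2-fold lower in KO-labelled cells, with a median of -1.11, and 3 of 9 macrophage and monocyte markers, with a median of -0.88, and their part was not tested.

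Among the 8 genes of the latent complex and its storage, 3 were at least 2-fold higher and 1 lower in the GF than in the SPF array of KO-labelled cells. Of all genes measured in that pair 21.6% were higher and 15.4% lower. Nrros, which holds latent TGF-beta on myeloid cells, was at 4.59 on the KO-labelled GF, 5.40 on the WT GF, 5.05 on the KO-labelled SPF and 4.98 on the WT SPF array. Lrrc32, which encodes GARP, the surface anchor of latent TGF-beta on regulatory T cells, was dim and lowest on the KO-labelled GF array, with a KO-labelled minus WT difference of -1.19 under GF housing and a GF minus SPF difference of -1.31 in KO-labelled cells. The matrix genes Dcn (decorin) and Fbn1 (fibrillin-1) were higher under GF than under SPF housing in KO-labelled cells, by 1.15 and 1.54. In WT cells their GF minus SPF differences were 0.91 and -0.04. Bgn (biglycan) differed by -1.18 in WT and 0.14 in KO-labelled cells. Fibroblast and smooth muscle markers were higher in the same KO-labelled pair, 4 of 10 by at least 2-fold and 1 lower, with a median of 0.82, and their part in the values of Dcn and Fbn1 was not tested.

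Of the integrin partners, 7 of the 8 listed genes were on the arrays. Comparing GF with SPF housing, 2 were at least 2-fold higher and 5 lower in KO-labelled cells, and 2 higher and 2 lower in WT cells. Of all measured genes 21.6% were higher and 15.4% lower in KO-labelled cells, and 17.5% and 9.44% in WT cells. Itgb3, whose product pairs with alpha v and with the platelet subunit alpha IIb, was higher under GF housing, by 2.06 in KO-labelled and 1.51 in WT cells. Itgb6, an epithelial partner of alpha v, was at least 3.08-fold higher in KO-labelled and at least 1.65-fold higher in WT cells. Itgb1 differed by -1.50 and -1.07, and Itga5, a subunit of the fibronectin receptor, by -2.55 and -1.48, in KO-labelled and WT cells. The epithelial and platelet marker sums were higher under GF housing as well, but Pf4 made up most of the platelet sum. Of the measured platelet markers, 3 of 6 were at least 2-fold higher and 1 lower in KO-labelled cells. In WT cells 2 of 5 were higher and 1 lower. The part of epithelial cells and platelets in the Itgb6 and Itgb3 values was not tested.

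Of the convertases and proteases that can release TGF-beta, 3 of 8 measured were at least 2-fold higher and 5 lower in KO-labelled cells under GF than under SPF housing. The shares of all genes measured in that pair were 21.6% and 15.4%. Mmp9 (gelatinase B) and Mmp14 (a membrane-bound metalloproteinase) differed in opposite directions in both genotypes: GF minus SPF was 2.59 in KO-labelled and 2.81 in WT cells for Mmp9, and -3.20 and -2.48 for Mmp14. Plaur, the urokinase receptor, was at 2.59 on the KO-labelled GF and 3.81 on the WT GF array, against 4.41 on the KO-labelled SPF and 3.06 on the WT SPF array. Its KO-labelled minus WT difference was therefore -1.22 under GF and 1.35 under SPF housing. Plat, tissue plasminogen activator, was higher in KO-labelled than in WT cells by 1.55 under SPF housing and differed by -0.34 under GF housing.

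Of the other thrombospondins and the receptors of thrombospondin-1, 4 of 5 were measured. Comparing GF with SPF housing, 2 were at least 2-fold higher and 0 lower in both genotypes. The shares of all measured genes were 21.6% higher and 15.4% lower in KO-labelled cells, and 17.5% and 9.44% in WT cells. Thbs4, a thrombospondin of tendon and muscle, had levels of 2.79 on the KO-labelled GF and 1.21 on the WT GF array, against -1.87 on the KO-labelled SPF and -3.92 on the WT SPF array, and was thus higher under GF housing. Cd36, a scavenger receptor that binds thrombospondin-1, was higher under GF housing by 2.17 in KO-labelled and 3.65 in WT cells. Cd47, another receptor, differed by -0.75 in KO-labelled and 0.30 in WT cells. Between genotypes, KO-labelled minus WT, Cd36 differed by -0.57 under GF and 0.91 under SPF housing, and Cd47 by -0.85 and 0.20. Thbs4 was higher in KO-labelled cells under both housings, by 1.58 and 2.05.

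Of the co-receptors and other type I receptors, 0 of 6 were past 2-fold between genotypes under either housing. Of all measured genes 8.78% were higher and 7.78% lower under GF housing, and 5.61% and 6.62% under SPF housing. Acvrl1 (ALK1) was lower under GF than under SPF housing, with differences of -1.45 in KO-labelled and -1.29 in WT cells. Of the 15 listed SMADs and regulators, Smad7, the inhibitory SMAD that TGF-beta itself induces, was at -0.75 on the KO-labelled GF and -0.53 on the WT GF array, against 1.51 on the KO-labelled SPF and 1.17 on the WT SPF array. Skil, a SMAD corepressor, was higher in KO-labelled than in WT cells by 1.27 under SPF housing and differed by -0.80 under GF housing. Smad4, the shared SMAD, lay between 3.07 and 3.34 on all 4 arrays.

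Past 2-fold, the 10 genes that TGF-beta induces in many cell types differed in both directions between housings and in 1 direction at a time between genotypes. Smaller genotype differences ran both ways, such as -0.875 for Ccn2 under SPF and 0.92 for Cdkn2b under GF housing. Comparing GF with SPF housing in KO-labelled cells, 3 were at least 2-fold higher (21.6% of all measured genes were) and 5 lower (15.4%). Their median was -0.74, against 0.05 over all. In WT cells 2 were higher (17.5%) and 1 lower (9.44%), with a median of 0.15, against 0.13 over all. Comparing KO-labelled with WT cells, 3 were lower (7.78% of all measured genes were) and 0 higher (8.78%) under GF housing, and 2 were higher (5.61%) and 0 lower (6.62%) under SPF housing. Taken as SPF minus GF, the genotype difference was at least 2-fold upward for 4 of 9 and downward for 0, with a median of 0.67, against 11.7% and 7.23% of all genes. Some of them respond to other signals as well.

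Junb, an AP-1 subunit, was at 2.55 on the KO-labelled GF and 3.67 on the WT GF array, against 4.60 on the KO-labelled SPF and 4.47 on the WT SPF array. The KO-labelled GF array was the low one, with a KO-labelled minus WT difference of -1.11 under GF and 0.14 under SPF housing. Ccn2, connective tissue growth factor, and Cdkn2b, a cell cycle inhibitor, ran the other way and were higher under GF housing, by 2.88 and 2.62 in KO-labelled cells and by 1.96 and 3.07 in WT cells.

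**Figure D5:**
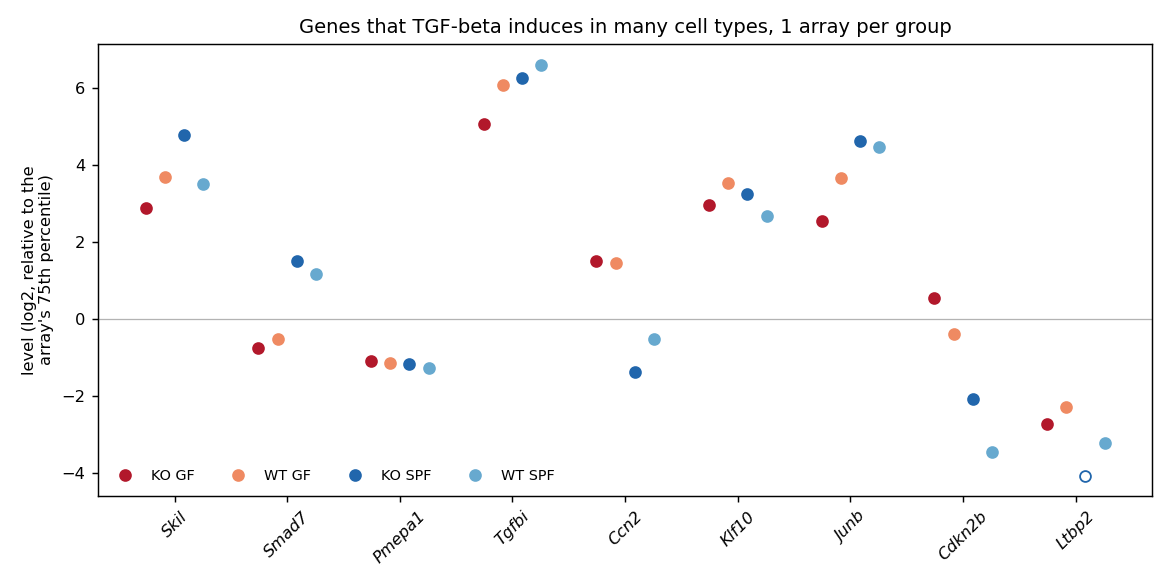
Level (log2, relative to the array's 75th percentile) of the TGF-beta-induced genes shown on the KO-labelled GF, WT GF, KO-labelled SPF and WT SPF arrays, 1 point per array, open where not well above background. Smad7 and Junb are lower on the GF arrays while Ccn2 and Cdkn2b are higher there.

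Of the 10 other ligands of the superfamily, Gdf15, a stress-associated cytokine, was at 2.44 on the KO-labelled GF and 3.55 on the WT GF array, against 4.60 on the KO-labelled SPF and 3.59 on the WT SPF array. KO-labelled minus WT was -1.10 under GF and 1.002 under SPF housing. Inhba, the activin A subunit, was at least 4.91-fold lower under GF than under SPF housing in KO-labelled cells and at least 4.81-fold lower in WT cells. Bmp2 was higher under GF housing by 1.66 in WT and 1.69 in KO-labelled cells. Nodal was higher in KO-labelled than in WT cells by 1.57 under GF housing and differed by -0.66 under SPF housing. Bmp4 lay between 1.16 and 1.79 on all 4 arrays.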

How the data were processed

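Per the file headers, the deposited scanner files hold a processed signal intensity per spot, background-subtracted by Feature Extraction 10.10.1.1 under protocol GE1_1010_Sep10, on a design whose genome build is mm9. Whole-transcriptome amplification of the RNA preceded Cy3 labelling, per the labels' protocols. The deposited series table holds intensity on a linear scale with genes not centred: each column was the processed signal times a constant, 7.96 (KO-labelled GF), 7.08 (WT GF), 8.24 (KO-labelled SPF) and 8.30 (WT SPF), by a rule that is unknown, and its column medians were 331.4, 235.7, 216.3 and 237.2. It served as an alternative.

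Control spots (3671) and outlier-marked spots were left out, spots of a probe were averaged and log2 levels were computed here from the deposited intensities by subtracting each array's 75th percentile over probes. Of 55597 probes, 27191 were named through RefSeq accessions (GRCm38.p6) and 28406 were not, and 19 with conflicting accessions stayed unnamed. The scanner signals at the 75th percentile were 206.0, 189.7, 157.5 and 165.3 on the KO-labelled GF, WT GF, KO-labelled SPF and WT SPF arrays, and 13797 to 15055 genes were above background. A probe was above background where no fewer of its spots were marked well above it than not. A gene was measured where it was above background on at least 1 array of a pair, and differences of 2-fold or more were counted. The number of arrays limits the precision. The calculation was tested on simulated data.

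Of the pathway lists, genes at least 2-fold different, at most 4 per list and comparison, and the 2 brightest per list were eligible to be named, and examples are given; 1 listed gene is counted but not reported here by name. The genes and lists were chosen with earlier results of these data known. Alternatives were quantile and cyclic loess scaling, normexp background correction (offset 50), the deposited table, other centring, filters and probe rules. Tools were R 4.3.3, limma 3.58.1, data.table version 1.17.8, Python 3.11.15, numpy 2.4.6, pandas 2.3.3 and matplotlib 3.10.9.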

Additional observations from a re-analysis of the deposited data

Results flagged for a closer look

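As scaled here, the difference between KO-labelled and WT cells had opposite signs in the 2 housings for 4 of the genes. All 4 are bright (mean level above 0). Over bright genes the median of this difference was -0.39 under GF and -0.04 under SPF housing. None of these contrasts between housings was tested, since each group had 1 array. Tgfb1 differed by -0.50 under GF and 0.33 under SPF housing, and the SPF minus GF value was 0.83 (0.46 to 0.83 over the settings). Furin differed by -0.45 under GF and 0.41 under SPF housing, with an SPF minus GF value of 0.86 (0.365 to 0.86 over the settings). With cyclic loess scaling its difference under GF housing was -0.04. Thbs1 differed by -0.36 under GF and 1.1 under SPF housing, with 1.46 (1.003 to 1.46 over the settings). With cyclic loess scaling its difference under GF housing was 0.06, the same sign as under SPF housing. Tgfbr1 differed by -0.20 under GF and 0.24 under SPF housing, with 0.44, and this value was -0.04 with quantile and -0.01 with cyclic loess scaling. By probe 2 of Tgfbr1 the differences were -0.35 under GF and -0.03 under SPF housing, so the signs were the same.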

How the results depend on the processing

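No paired analysis was possible because each group had 1 array and the labels carry no replicate numbers, and for the same reason no array could be left out. A slide block coincides with housing. For Thbs1 and Tgfb3, GF minus SPF kept its sign and stayed beyond 2-fold under every alternative that gave a value: -4.18 to -3.73 and -3.36 to -2.32 in KO-labelled cells, and -2.87 to -2.57 and -1.95 to -1.15 in WT cells. KO-labelled minus WT under SPF housing was 1.20 to 1.57 for Tgfb3 and 0.99 to 1.16 for Thbs1. The count of genes at least 2-fold higher in KO-labelled cells under SPF housing was 1 with quantile scaling (2 as reported). The count lower there was 0 with normexp, with genes above background on all arrays, with the median or mean over probes and with the second probe (1 as reported). Under GF housing the count higher was 0 with normexp and with genes above background on all arrays (1 as reported). In KO-labelled cells, GF against SPF, the count higher was 2 with quantile, cyclic loess and the deposited table in log2, and 0 with genes above background on all arrays (1 as reported). It was 1 with normexp too, where Tgfbr2 (1.14) was counted in place of Tgfb2 (0.27). The count lower was 3 with cyclic loess and the deposited table (5 as reported), as Tgfb1 and Tgfbr1 fell short of 2-fold. In WT cells the count higher was 0 with the median or mean over probes (1 as reported). For the genotype difference, SPF minus GF, the count lower was 1 with no filter (0 as reported). Tgfb2 changed sign: KO-labelled minus WT under SPF housing was 0.22, and GF minus SPF in WT cells 0.21, with the median or mean over probes, and GF minus SPF in WT cells was 2.38 with the second probe, an alternative chosen after seeing the data. GF minus SPF of Tgfbr2 in WT cells was -0.25 with the second probe. The cause was not tested. Calls over all genes, given as higher and lower, depended on the setting. The deposited table moved the median KO-labelled minus WT difference under GF housing to 0.09 (-0.20 as reported) with 2291 and 571 calls (1378 and 1221 as reported), GF minus SPF in KO-labelled cells to 0.39 (0.05) with 4613 and 1501 (3368 and 2397), and the genotype difference, SPF minus GF, to -0.19 (0.18) with 704 and 1878 (1503 and 932). Median centring gave 2017 and 694 calls between genotypes under GF housing, 2346 and 1905 between housings in WT cells (2740 and 1478) and 1104 and 1251 for SPF minus GF. Normexp gave 283 and 358 under GF and 176 and 92 under SPF housing between genotypes (835 and 985 as reported under SPF), 1208 and 1258 in KO-labelled and 993 and 452 in WT cells between housings, and 783 and 298 for SPF minus GF. With genes above background on all arrays the counts were 512 and 811, 443 and 334, 1773 and 1973, and 1508 and 874 in the same 4 pairs. With no filter they were 1427 and 1505 under SPF housing, and 3011 and 2899 for SPF minus GF.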
